A study of Mus musculus with 6 samples.

Results

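Peritoneal macrophages, the phagocytes that live in the abdominal cavity, were cultured from wild-type C57BL6/J male mice of 6 to 8 weeks and given the bacterial endotoxin lipopolysaccharide (LPS) at 10 ng/ml for 4 h, or vehicle for 5 h. Polyadenylated RNA was sequenced, and the comparison described here is of the 2 LPS libraries with the 2 vehicle libraries, 4 of the 6 in the series. The other 2 libraries had the same LPS after 1 h with 10 µM of the aryl hydrocarbon receptor ligand SGA360, and enter here through the steps of the fit that all libraries share, which are the filter on low counts, the scaling and the estimate of spread between replicates. Nothing in the labels tells whether replicates are separate animals or cultures, and the p-values therefore reflect the spread among these libraries alone, possibly a technical one. All groups share the strain and the absence of any genetic change. How the macrophages were obtained and purified is not stated in the labels. The comparison covers the 24454 gene symbols of the deposited count table, of which 9389 had enough reads to be tested.

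LPS is sensed by the receptor TLR4 with its co-receptors, and signals through the adaptors MyD88 and TRIF to NF-kB, AP-1 and interferon regulatory factors. Macrophages so stimulated are known for an early burst of inflammatory genes, a later wave that depends on secreted interferon, and a change in fuel use towards glucose. In the resting state they carry lysosomes rich in hydrolases, receptors for debris and opsonised particles, and factors that maintain their identity. The account below goes past the cytokines to these genes, to metabolism, transporters and transcription factors.

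Levels are CPM, counts scaled to a common total, on library sizes scaled by TMM, given for replicates 1 and 2 of each group in that order. Differences are log2 fold changes of LPS against vehicle with their standard error (SE) from edgeR, where 1 on the log2 scale is a doubling. Where leaving out 1 library, or another tool, scaling, filter or choice of libraries, moved a list's count of genes by more than 1.5 times, the count in that setting follows it. A gene is said to have risen or fallen where its Benjamini-Hochberg adjusted p over all 9389 genes was below 0.05. Total counts were 8689452 and 8874130 in vehicle and 7726973 and 9529817 with LPS. Vehicle replicate 1 stood apart, with 10001 genes detected where the other 5 libraries had 12282 to 12643. Ribosomal RNA from Rn45s was 4.92% of its counts and 0.22% to 0.684% of theirs. Messages of replication-dependent histones, which carry no poly(A) tail, summed to 131 and 104 CPM in vehicle and 47.0 and 49.96 CPM with LPS, and 3 of the 5 tested fell (9 without vehicle replicate 2, where more of them were tested). What part this had in the falls described below was not tested. Among the genes named below, Acp2, Bop1, Cebpd, Ctsb, Dbp, Dlst, Esrra, G6pdx, Hadha, Lpar6, Lpcat2, P2ry12, Parp9, Sgsh, Slc15a3, Slc26a11, Stab1, Stat2 and Tpcn1 overlap another protein-coding gene in RefSeq, and their values are uncertain as the counting may have ignored strand. Of the tested genes, 301 had no count in vehicle replicate 1 and 27 had none in vehicle replicate 2. Of the 301, 173 had 10 or more counts in vehicle replicate 2, so a count of 0 in replicate 1 need not mean an absent message. With LPS 96 of the 301 rose, where 1820 of all 9389 tested genes did (19.4%). A gene with no count in a vehicle library could hardly be called lower.

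Markers of the macrophage itself were present in every library. Lyz2, the macrophage lysozyme gene, was at 18914 and 20611 CPM in vehicle and 18840.1 and 22238 CPM with LPS, with overlapping groups. Of the 8 tested macrophage markers 2 rose and 4 fell. Of all tested genes 19.4% rose and 17.0% fell, and the marker counts are to be read against these shares. Adgre1, the gene of the surface marker F4/80, went from 487 and 543 CPM to 1219 and 1316 CPM, while Mertk, a receptor for dying cells, went from 98.9 and 104 CPM to 23.1 and 23 CPM. RNA of other cells was also present. The 9 tested markers of mesothelial cells, which line the peritoneum, summed to 546 and 516 CPM in vehicle and 371 and 371 CPM with LPS, and 4 of them fell (2 with LPS replicate 1 or 2 left out). Lrrn4 among them fell by 1.04 (log2, SE 0.11). The fibroblast markers summed to 4681 and 5380 CPM in vehicle and 4726 and 4419 CPM with LPS. The collagen genes Col1a1 and Col1a2 made up most of this sum and did not pass the test (Col1a2 was called lower with upper-quartile scaling), at 1735 and 2172 CPM against 1951 and 1839.8 CPM for Col1a1. Col3a1, a further collagen gene, fell by 0.41 (log2, SE 0.069), and the fibroblast count of 1 fall became 2 without vehicle replicate 1 and 3 without vehicle replicate 2 or with upper-quartile scaling. Of 2 tested endothelial markers 1 fell, a count that changed when single libraries were left out. The endothelial list summed to 67.5 and 82.7 CPM in vehicle and 46.8 and 57.6 CPM with LPS. Markers of B cells, T and NK cells, neutrophils, mast cells and dendritic cells summed to at most 87.9 CPM per list in any of the 4 libraries, and erythroid markers had no count. What part these other cells had in the falls described below was not tested. In bulk samples such as these, fewer cells of a type and less RNA per cell cannot be told apart.

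Falls were nearly as many as rises. In all, 3413 genes passed the test, 36.4% of those tested: 1820 rose, which is 19.4% of those tested, and 1593 fell, which is 17.0%. The counts of each list, those of histones and markers above included, are to be read against these shares. A list close to them is not set apart from other genes. Changes over 2-fold were fewer, with 652 rises (6.94%) and 567 falls (6.04%). The 2 groups did not overlap for 6184 genes, 65.9% of those tested, and for 3411 of the 3413 that passed. The balance depends on scaling: rises were 53.3% of the calls with TMM scaling and 42.4% with upper-quartile scaling, which moved the median log2 fold change of all genes from -0.0084 to -0.0982 and gave 1460 rises and 1983 falls. The number of calls moved with single libraries, to 5494 without vehicle replicate 2, 2217 without LPS replicate 1 and 2091 without LPS replicate 2.

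**Figure D1:**
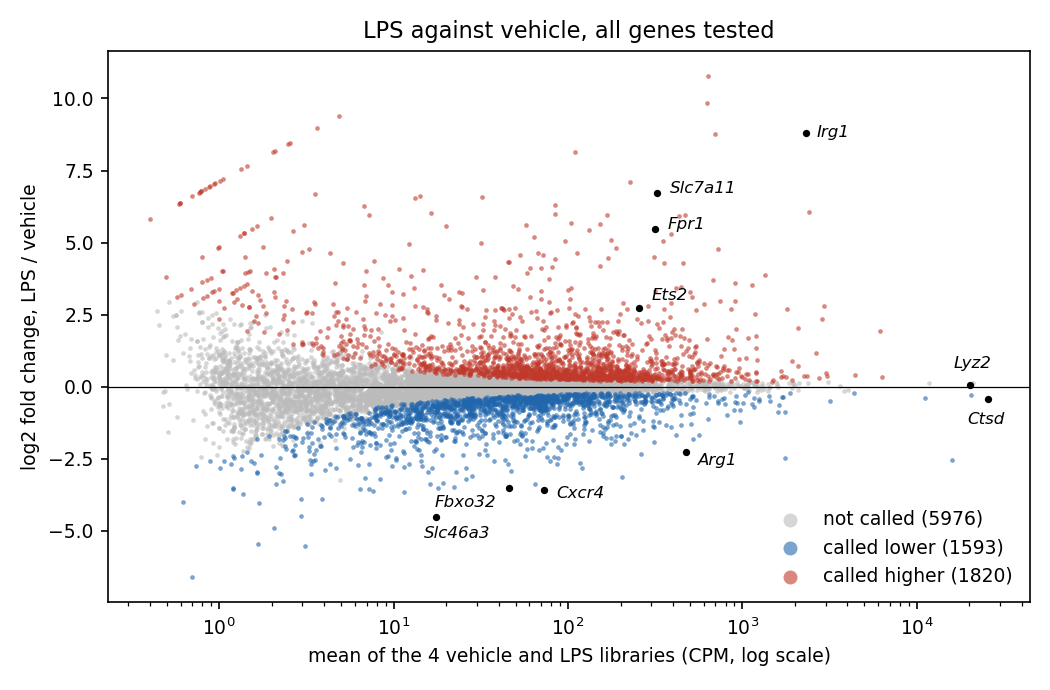
Log2 fold change of LPS against vehicle for each of the 9389 tested genes (vertical axis) against its mean level in the 4 libraries in CPM (horizontal log axis), with genes that passed the test coloured by direction. The 1820 rises reach further from 0 than the 1593 falls.

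Genes that rose or fell were picked by their change in these libraries, so the direction of their shares was fixed in advance. The shares give only the size of the shift. With Rn45s left out, the genes that rose held 24.0% and 24.5% of all counts in vehicle and 40.1% and 40.2% with LPS. The genes that fell went from 28.2% and 28.0% to 16.5% and 16.8%. Of genes with a mean of 200 to 1000 CPM, 43.4% rose, against 8.69% of those under 2 CPM. Falls were 2.9% of the genes under 2 CPM, 21.5% of those between 10 and 50 CPM and 18.9% of those between 200 and 1000 CPM. These means include the LPS libraries, so a rise itself lifts the mean of a gene. Genes with few counts are also harder to call.

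By the difference in CPM, which is not corrected for transcript length, the largest gain was that of Saa3, which encodes an acute-phase serum amyloid protein. It stood at 2751 and 2349 CPM in vehicle and 10254 and 9081 CPM with LPS, a rise of 1.92 (log2, SE 0.092). The second largest gain was that of Clec4e, the gene of Mincle, a receptor for glycolipids of mycobacteria and fungi, from 69.5 and 72.3 CPM to 4111 and 5428 CPM. Cybb, encoding the catalytic subunit of the phagocyte NADPH oxidase, went from 889.6 and 958 CPM to 4713 and 4797 CPM, and Tnfrsf1b, a receptor for tumour necrosis factor, from 716 and 746 CPM to 4994 and 5302 CPM. Apart from Rn45s, the largest loss was that of Ctsd, the gene of the lysosomal protease cathepsin D, from 29171 and 29429.9 CPM to 20703 and 22789.8 CPM. Ctsb, which encodes cathepsin B, followed with 22287 and 22467 CPM in vehicle and 17489 and 19084 CPM with LPS. The losses of the cathepsins were small as ratios, -0.43 (log2, SE 0.056) and -0.29 (log2, SE 0.059) on the log2 scale, and in each case the 2 groups did not overlap.

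By fold, the rises outside cytokines included Tarm1, a receptor of myeloid cells that associates with the Fc receptor chain, which was at 0 and 1.25 CPM in vehicle and 64.4 and 62.3 CPM with LPS. For 24 of the genes that rose, neither vehicle library had a count. These passed the filter on low counts only through libraries given LPS, so they could not have been called lower. Tmem132e was the clearest of these, at 11 and 8.31 CPM with LPS. Against a floor of 3 counts in each vehicle library its level was at least 29.9-fold higher, and that of Shisa3 at least 22.5-fold higher.

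The largest fall among genes with a mean of at least 5 CPM was that of Slc46a3, which encodes a lysosomal membrane transporter, from 28.8 and 38.2 CPM to 1.86 and 1.09 CPM, a log2 change of -4.52 (SE 0.29, edgeR adjusted p = 9.2e-07). The 25 largest falls held receptors for chemokines and lipids, transporters, enzymes and regulators, and those named below are described by what they encode. On mm10 the deposited table places Slc46a3 at NM_027872, chromosome 5 from 147878441 to 147894802, Cxcr4 at NM_009911, chromosome 1 from 128588199 to 128592299, Fbxo32 at NM_026346, chromosome 15 from 58175879 to 58214892, and Sgsh at NM_018822, chromosome 11 from 119343489 to 119355510.

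**Figure D2:**
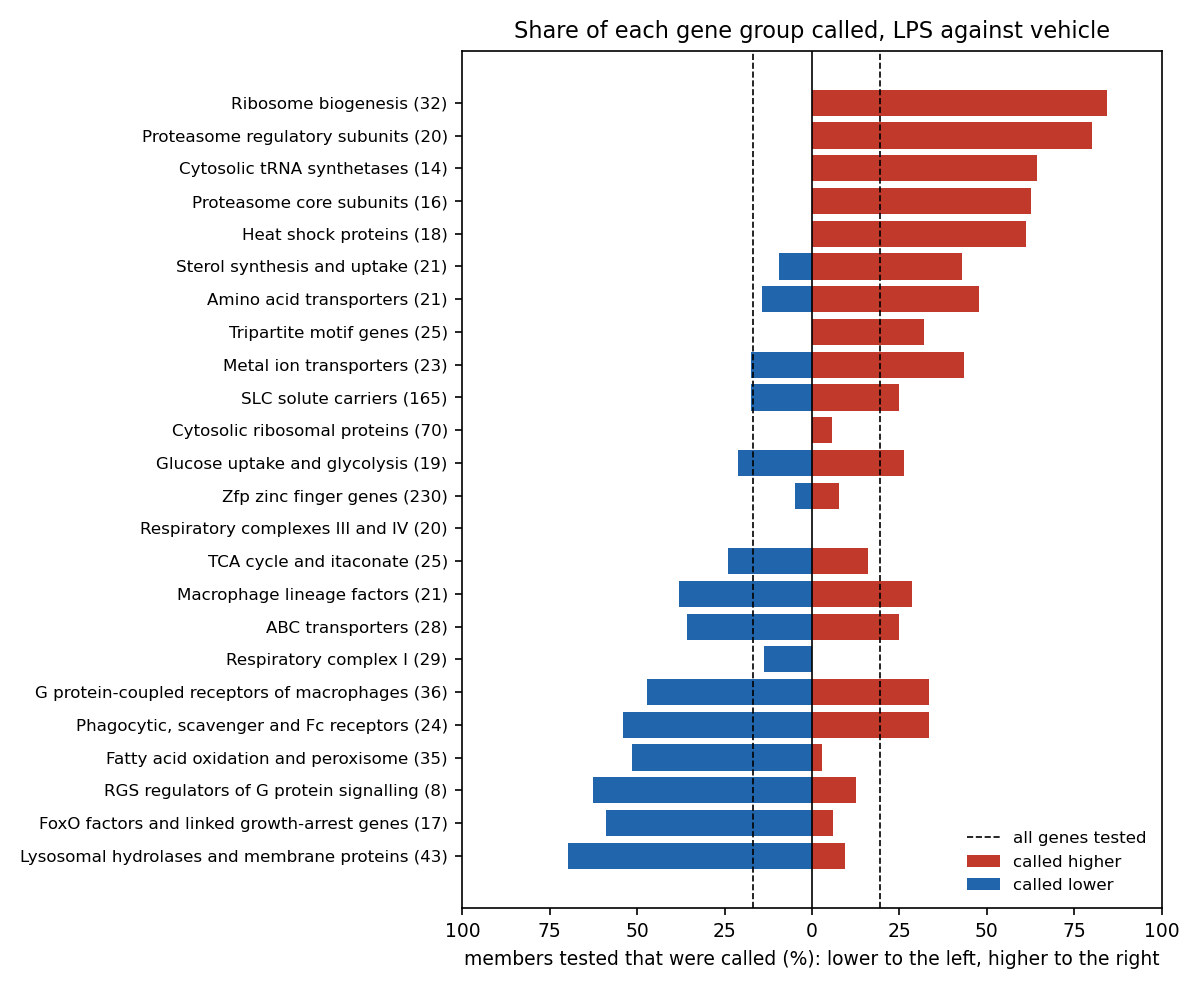
Percent of the tested members that rose (red, right) and fell (blue, left) in each of 24 gene lists, with the number tested in brackets and dashed lines for all genes tested. Ribosome biogenesis (27 of 32) and the regulatory subunits of the proteasome (16 of 20) rose in most members and had no fall, while lysosomal genes (30 of 43) mostly fell, and 18 of 35 genes of fatty acid oxidation and the peroxisome did (11 without LPS replicate 1).

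Among transcription factors of the macrophage lineage, 6 of 21 tested rose and 8 fell. Ets2, an ETS-family factor of activated macrophages, was at 59.1 and 74.5 CPM in vehicle and 440.2 and 448 CPM with LPS, a rise of 2.73 (log2, SE 0.10, edgeR adjusted p = 1.8e-08). Prdm1, which encodes the transcriptional repressor Blimp-1, rose by 2.68 (log2, SE 0.15), and Tfec, a myeloid relative of the lysosomal regulator TFEB, by 2.67 (log2, SE 0.15). Spi1, the gene of PU.1, which is required to make macrophages, rose from 299 and 354 CPM to 782 and 710.1 CPM. In each of these the 2 groups were far apart.

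Among the falls, Maf, a factor known to drive interleukin 10 in macrophages, was at 312 and 259.9 CPM in vehicle and 114 and 109 CPM with LPS, a log2 change of -1.36 (SE 0.095, edgeR adjusted p = 1.9e-06), with both LPS libraries below both vehicle libraries. Fli1, another ETS-family factor, fell by 1.70 (log2, SE 0.15). Gata6, the factor that specifies the resident large peritoneal macrophage, fell from 142 and 139.8 CPM to 108 and 93.7 CPM. It was the only fall among 9 tested markers of that cell, of which 3 rose (1 without LPS replicate 2, with these 4 libraries alone or with only symbols of 1 transcript). The regulators Id3 and Bach1 did not pass the test, at -0.16 (log2, SE 0.085) and -0.19 (log2, SE 0.096), but were called lower with upper-quartile scaling.

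Immediate early factors are induced within minutes of many signals, and were listed here together with other AP-1 and ATF factors. Of 18 tested members of this mixed AP-1, ATF and immediate early list, 9 rose and 4 fell at 4 h. Batf, whose protein pairs with JUN, rose from 18.4 and 15.3 CPM to 87.8 and 91.8 CPM, and Batf2 by 2.80 (log2, SE 0.22). By contrast Fos was at 19.1 and 22.7 CPM in vehicle and 4.52 and 6.67 CPM with LPS, a log2 change of -1.89 (SE 0.24, edgeR adjusted p = 1.6e-04). Jun fell by 0.78 (log2, SE 0.082) and Egr1 fell by 1.04 (log2, SE 0.11). Atf3, a repressor known to be induced by LPS, did not pass the test, at 463 and 423 CPM in vehicle and 414 and 430.4 CPM with LPS, with overlapping groups.

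Of the C/EBP and Krüppel-like factors, 4 of 16 rose and 4 fell (falls 2 with LPS replicate 1 or 2 left out). Cebpd, an inflammatory C/EBP factor, rose by 1.81 (log2, SE 0.12) and Klf7 by 1.37 (log2, SE 0.21), whereas Klf4, linked to alternative macrophage activation, fell by 1.05 (log2, SE 0.15). Nuclear receptors gave 5 rises and 3 falls of 16, which became 3 with LPS replicate 1 or 2 left out or with DESeq2 for rises and 5 without vehicle replicate 1 and 0 with LPS replicate 1 or 2 left out for falls. Nrip1, a corepressor of nuclear receptors, rose by 1.01 (log2, SE 0.13), and Esrra, an orphan receptor of mitochondrial gene expression, by 0.78 (log2, SE 0.14). Stat2, which carries the type I interferon signal to the nucleus, was at 65.7 and 68.9 CPM in vehicle and 181 and 208 CPM with LPS, a rise of 1.53 (log2, SE 0.094). Zinc finger genes named Zfp, many of them repressors, had low levels, with 337 members summing to 4298 and 4487 CPM in vehicle. Of all tested genes with a mean of 2 to 10 CPM, 7.59% rose and 11.3% fell. Of 230 tested Zfp genes 18 rose and 11 fell, or 7.83% and 4.78%, against 19.4% and 17.0% of all genes. Zfp genes were not compared with other genes of like level. Their counts depended on single libraries and settings, with rises 54 without vehicle replicate 2, 10 without LPS replicate 2 and 30 with no filter and falls 19 without vehicle replicate 1, 42 without vehicle replicate 2, 3 with LPS replicate 1 or 2 left out and 6 with DESeq2.

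**Figure D3:**
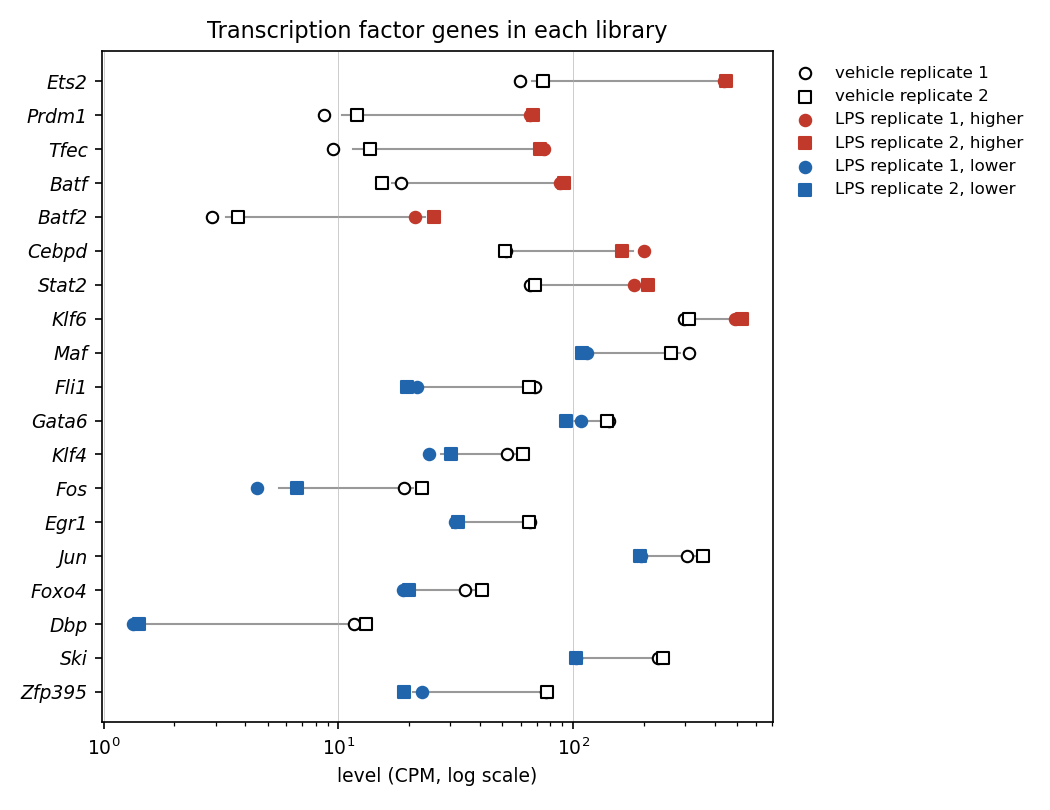
Levels of transcription factors in CPM on a log axis in each of the 4 libraries, with open points for vehicle, filled points for LPS (red higher, blue lower) and a grey line between the group means. Ets2, Prdm1 and Tfec are higher in both LPS libraries, and Maf, Fos and Dbp are lower in both.

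FoxO factors drive growth-arrest and catabolic genes and are held out of the nucleus by growth signals. Of 17 tested FoxO factors and genes linked to them 10 fell and 1 rose (falls 4 without LPS replicate 1). Fbxo32, which encodes the ubiquitin ligase atrogin-1, was at 77.7 and 92 CPM in vehicle and 7.85 and 7 CPM with LPS, a log2 change of -3.52 (SE 0.16, edgeR adjusted p = 7.8e-08). Foxo4 fell by 0.96 (log2, SE 0.15), Foxo3 fell by 0.68 (log2, SE 0.13) and Irs2, an adaptor of the insulin receptor, fell by 0.92 (log2, SE 0.19). The exception was Gadd45a, a stress and DNA damage gene, which rose from 10.6 and 11.3 CPM to 29.3 and 32.6 CPM. Dbp, an output factor of the circadian clock, was among the largest falls of all, from 11.6 and 13.1 CPM to 1.33 and 1.42 CPM, while the clock repressor gene Cry1 rose by 1.07 (log2, SE 0.13). The clock list as a whole had 2 rises and 3 falls of 12, with rises 1 with LPS replicate 1 or 2 left out, with DESeq2, with upper-quartile scaling, with no filter or with these 4 libraries alone and falls 5 without vehicle replicate 2.

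Promoter windows of 5 of the genes described here are shown. They give the sequence at the start of genes that moved strongly and match the pattern of a well-known element. Each runs from 250 bases before to 50 bases after the annotated start, read along the gene from the RefSeq annotation of GRCm38.p6, with the element in capitals. Gch1 (chr14:47189364-47189663, minus strand) makes the cofactor biopterin and holds an NF-kB consensus that begins 10 bases before the start. Stat2 (chr10:128270248-128270547, plus strand) holds an interferon-stimulated response element, GAAANNGAAA, seen here on the other strand and beginning 222 bases before the start. Prdm1 (chr10:44458699-44458998, minus strand) holds a match to the AP-1 pattern searched, TGANTCA, 48 bases before the start. This pattern allows any base in the middle, which is an A here. Sgsh (chr11:119355461-119355760, minus strand), a lysosomal sulfatase, holds the E-box CACGTG 29 bases before the start. Slc36a1 (chr11:55204090-55204389, plus strand), a lysosomal amino acid transporter, holds 2 such boxes, 31 and 3 bases before the start. This E-box is the core of the element bound by TFEB and related factors.
Gch1: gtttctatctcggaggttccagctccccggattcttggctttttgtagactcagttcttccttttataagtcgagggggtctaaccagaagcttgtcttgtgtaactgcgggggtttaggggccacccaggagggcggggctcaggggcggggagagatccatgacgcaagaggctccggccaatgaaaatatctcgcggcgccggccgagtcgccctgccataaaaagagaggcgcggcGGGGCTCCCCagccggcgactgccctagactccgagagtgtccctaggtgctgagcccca
Stat2: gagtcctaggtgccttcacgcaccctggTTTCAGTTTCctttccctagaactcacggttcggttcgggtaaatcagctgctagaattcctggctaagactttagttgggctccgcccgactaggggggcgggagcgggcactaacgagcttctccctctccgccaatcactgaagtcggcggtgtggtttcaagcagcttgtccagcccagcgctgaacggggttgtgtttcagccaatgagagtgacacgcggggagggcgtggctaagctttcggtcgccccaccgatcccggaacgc
Prdm1: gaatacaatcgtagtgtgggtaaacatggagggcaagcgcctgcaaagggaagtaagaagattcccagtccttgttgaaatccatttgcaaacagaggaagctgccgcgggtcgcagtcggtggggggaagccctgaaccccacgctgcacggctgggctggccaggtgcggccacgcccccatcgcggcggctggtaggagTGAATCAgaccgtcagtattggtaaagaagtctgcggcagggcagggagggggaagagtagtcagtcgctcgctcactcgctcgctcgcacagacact
Sgsh: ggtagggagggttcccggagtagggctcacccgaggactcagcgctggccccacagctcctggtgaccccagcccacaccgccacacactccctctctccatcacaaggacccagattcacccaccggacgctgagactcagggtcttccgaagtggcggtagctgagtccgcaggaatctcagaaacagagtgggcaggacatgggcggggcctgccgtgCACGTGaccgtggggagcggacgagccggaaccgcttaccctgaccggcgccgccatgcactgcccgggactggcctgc
Slc36a1: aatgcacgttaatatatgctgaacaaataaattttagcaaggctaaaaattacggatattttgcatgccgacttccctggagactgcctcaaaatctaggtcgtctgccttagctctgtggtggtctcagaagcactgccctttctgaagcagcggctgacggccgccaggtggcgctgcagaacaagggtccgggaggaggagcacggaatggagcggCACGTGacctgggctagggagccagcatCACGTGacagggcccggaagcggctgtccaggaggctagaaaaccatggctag
Both strands were searched, and in none of the 5 windows did another of the 6 motifs searched occur. Over all 32851 windows of the annotation, the NF-kB consensus was found in 4.50%, the interferon-stimulated element in 3.44%, the AP-1 element in 7.81% and the E-box in 7.15%. Over the 8574 windows that belong to tested genes these shares were 5.59%, 3.32%, 5.02% and 10.2%. A match is a description of letters and not a bound site. A comparison of these shares between genes that rose and fell is void, since only 7351 of the 9389 tested genes had a window.

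Receptors were among the genes that moved furthest, in both directions. Of 36 tested G protein-coupled receptors, 12 rose and 17 fell. The chemokine receptor Cxcr4, whose ligand CXCL12 retains cells in tissue, was at 129.6 and 139 CPM in vehicle and 10.4 and 12 CPM with LPS, a log2 change of -3.58 (SE 0.13, edgeR adjusted p = 1.6e-08). Cx3cr1, the receptor of fractalkine, went from 41.7 and 40.1 CPM to 3.59 and 3.72 CPM. Of lipid receptors, the lysophosphatidic acid receptor Lpar6 fell, at -3.10 (log2, SE 0.18), as did the sphingosine-phosphate receptor S1pr1, at -2.11 (log2, SE 0.13). Of nucleotide receptors, P2ry6 for uridine diphosphate fell, at -2.19 (log2, SE 0.14), as did P2ry12 for adenosine diphosphate, at -3.89 (log2, SE 0.64). Receptors of lipids or of nucleotides were not counted as classes. C3ar1, the receptor of the complement fragment C3a, was at 860.3 and 849 CPM in vehicle and fell to 242 and 293 CPM.

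Other receptors rose. Fpr1 and Fpr2 sense formyl peptides released by bacteria and mitochondria. Fpr1 was at 15.8 and 12.1 CPM in vehicle and 590.5 and 639.7 CPM with LPS, and Fpr2 at 4.47 and 6.04 CPM and 289 and 367 CPM, rises of 5.47 (log2, SE 0.12) and 5.95 (log2, SE 0.20). Gpr84, a receptor of medium-chain fatty acids, went from 10.5 and 9.47 CPM to 349 and 337 CPM. Hcar2, the receptor of niacin and beta-hydroxybutyrate, rose by 4.32 (log2, SE 0.19), and Adora2a, an adenosine receptor that restrains inflammation, by 4.15 (log2, SE 0.11). In all of these the vehicle and LPS libraries were far apart.

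RGS proteins speed the switching off of G proteins behind such receptors. Of 8 tested, 5 fell and 1 rose. Rgs2 was at 133 and 102 CPM in vehicle and 9.58 and 12.9 CPM with LPS, a log2 change of -3.37 (SE 0.18, edgeR adjusted p = 2.0e-07). Rgs18 fell by 2.49 (log2, SE 0.27) and Rgs14 fell by 1.17 (log2, SE 0.15), while Rgs16 rose by 1.61 (log2, SE 0.30).

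Phagocytic, scavenger and Fc receptors gave 8 rises and 13 falls of 24 tested. With only symbols of 1 transcript in the table, the rises were 5. Of the receptors of immunoglobulin G, Fcgr1, the high-affinity receptor, went from 100.01 and 91 CPM to 17.7 and 18.7 CPM, a log2 change of -2.39 (SE 0.12, edgeR adjusted p = 1.4e-07), and Fcgr3, a low-affinity one, from 642 and 623 CPM to 199 and 201 CPM. Fcgr4 fell by 1.40 (log2, SE 0.22), whereas Fcgr2b, the inhibitory receptor, rose from 2.23 and 3.43 CPM to 6.92 and 9.95 CPM. That rise is uncertain, as the symbol has 2 transcripts in the table and its edgeR adjusted p was 0.085 without LPS replicate 2. Fcer1g, the signalling chain of the activating receptors, rose from 628 and 567 CPM to 967 and 977 CPM. Among scavenger receptors Marco, which binds bacteria and particles, rose from 151 and 140.5 CPM to 462 and 449 CPM and Scarf1 by 1.97 (log2, SE 0.11), whereas Stab1, an endocytic receptor, fell by 0.97 (log2, SE 0.068) and the mannose receptor gene Mrc1 fell by 0.87 (log2, SE 0.084). Cd93, a transmembrane C-type lectin, fell from 774 and 851 CPM to 219 and 242 CPM. Havcr2, the gene of the inhibitory receptor TIM-3, fell by 2.74 (log2, SE 0.23). Cd68, a lysosomal glycoprotein with 2 transcripts in the table, did not pass the test, at -0.11 (log2, SE 0.091).

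Complement genes gave 5 rises and 5 falls of 14 tested. C3, the central component, was at 484 and 489.8 CPM in vehicle and 994 and 1059 CPM with LPS, a rise of 1.08 (log2, SE 0.064). C1qa and C1qc, chains of the recognition molecule C1q, fell, with log2 changes of -0.57 (log2, SE 0.076) and -0.69 (log2, SE 0.072).

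**Figure D4:**
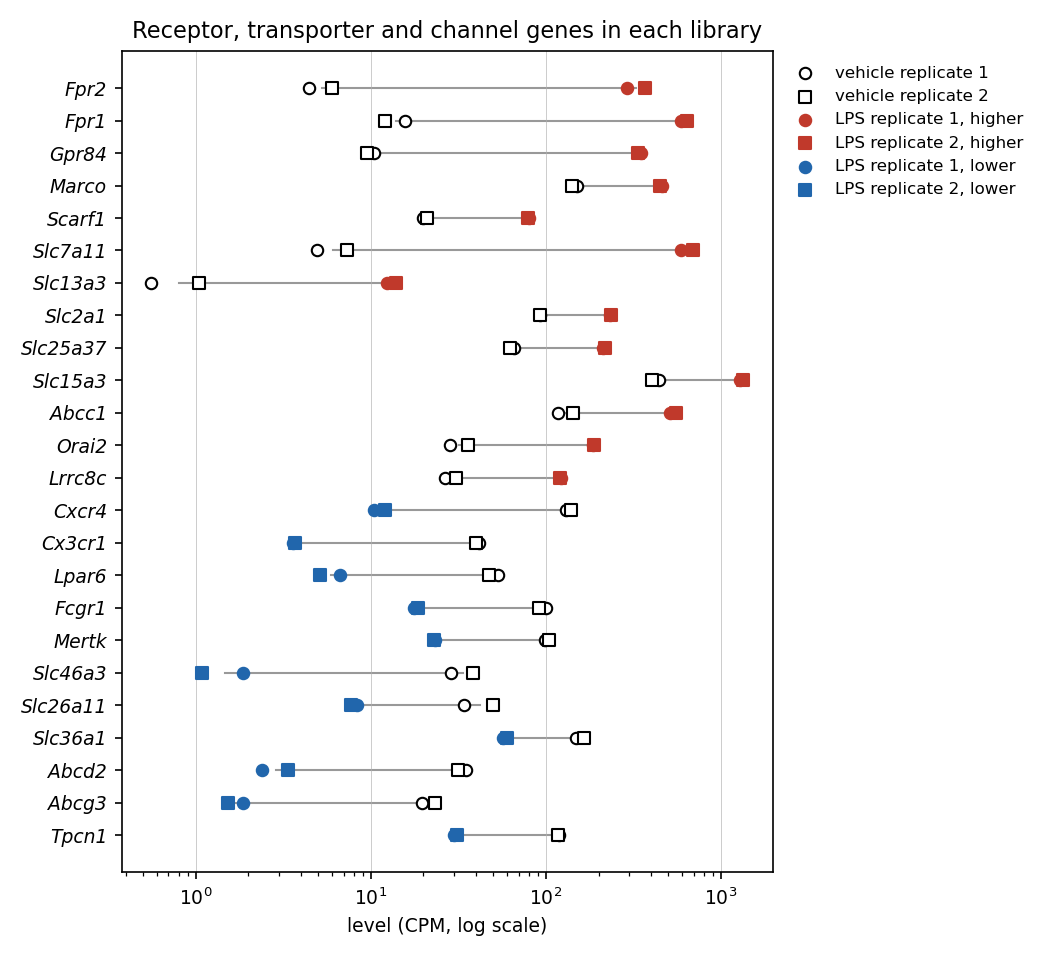
Levels of receptors, transporters and channels in CPM on a log axis in each of the 4 libraries, with open points for vehicle, filled points for LPS (red higher, blue lower) and a grey line between the group means. Fpr1, Fpr2 and Gpr84 are higher in both LPS libraries, and Cxcr4, Cx3cr1 and Slc46a3 are lower in both.

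Most lysosomal genes fell. Of 43 tested hydrolases and membrane proteins of the lysosome, the degradative compartment of the cell, 30 fell and 4 rose, or 69.8% and 9.3%, against 17.0% and 19.4% of all genes. The median log2 fold change of the list was -0.38, and its summed level went from 73602 and 74341 CPM to 56532 and 61002 CPM. Sgsh, whose promoter is shown above, overlaps Card14 and Slc26a11 in the annotation. This enzyme removes sulfate from heparan sulfate, and its gene was at 72.5 and 85 CPM in vehicle and 13.3 and 11.4 CPM with LPS, a log2 change of -2.68 (SE 0.15, edgeR adjusted p = 3.2e-07). Pla2g15, the lysosomal phospholipase, went from 286 and 297 CPM to 79.5 and 79.4 CPM. Lgmn, the asparaginyl protease legumain, fell by 0.90 (log2, SE 0.061) and Galc, which degrades galactosylceramide, fell by 1.01 (log2, SE 0.090). Hyal1, a hyaluronidase outside the list, fell by 2.78 (log2, SE 0.27).

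The exceptions were few. Acp2, a lysosomal acid phosphatase, rose from 206 and 220.2 CPM to 414 and 430.3 CPM. Npc2, which binds cholesterol in the lysosome, did not pass the test at 0.055 (log2, SE 0.058). The proton pump that acidifies the lysosome was divided by subunit, with 3 rises and 5 falls of 16 tested (8 falls with upper-quartile scaling). Atp6v0d2, a subunit isoform of macrophages and osteoclasts, fell from 589 and 541 CPM to 206 and 223 CPM, and Atp6v1c1 and Atp6v1a fell, with log2 changes of -0.68 (SE 0.065) and -0.62 (SE 0.072). Atp6v1e1 and Atp6v0b rose by 0.71 (log2, SE 0.059) and 0.61 (log2, SE 0.063). Tpcn1, a cation channel of endosomes and lysosomes, fell by 1.96 (log2, SE 0.099). Autophagy genes, whose products deliver cargo to lysosomes, gave 4 rises and 8 falls of 30, with rises 8 without vehicle replicate 2, 2 without LPS replicate 1, with upper-quartile scaling or with these 4 libraries alone and 1 without LPS replicate 2. Bnip3l, a receptor for the removal of mitochondria, fell by 0.74 (log2, SE 0.080), and Optn, a receptor for ubiquitin-marked cargo, rose by 0.95 (log2, SE 0.098).

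**Figure D5:**
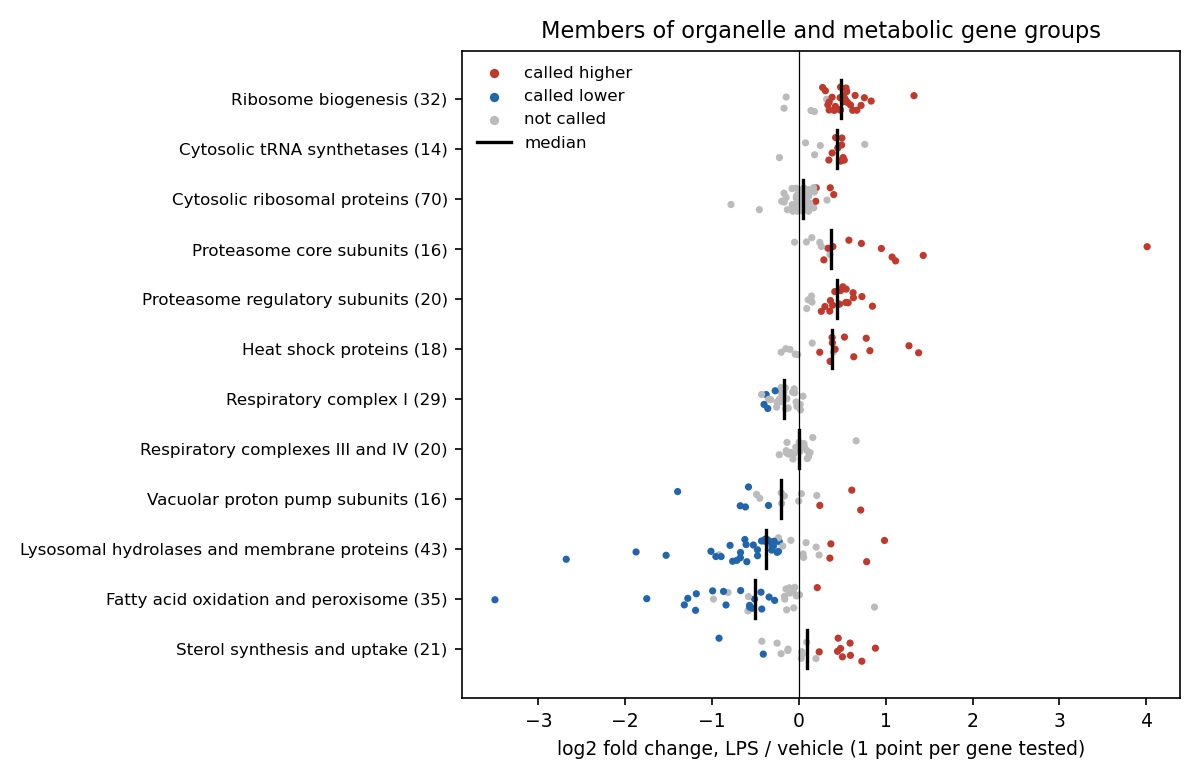
Log2 fold change of each tested gene (points) in the lists for lysosome, fatty acid oxidation and peroxisome, ribosome biogenesis and related groups, coloured by call (red higher, blue lower, grey not called), with a black bar at each list's median. Most lysosomal points lie below 0 and most ribosome biogenesis points above it.

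Fatty acid oxidation and the peroxisome, where very long fatty acids are first shortened, were another group in which falls outnumbered rises. Of 35 tested genes 18 fell (11 without LPS replicate 1) and 1 rose (0 without vehicle replicate 1, with LPS replicate 1 or 2 left out, with DESeq2, with upper-quartile scaling, with a 5 CPM filter or with these 4 libraries alone and 2 without vehicle replicate 2). Abcd2, a peroxisomal importer of very long fatty acids, was at 35.2 and 31.3 CPM in vehicle and 2.39 and 3.39 CPM with LPS, a log2 change of -3.50 (SE 0.29, edgeR adjusted p = 6.0e-06). Acox3, an acyl-CoA oxidase of the peroxisome, fell by 1.75 (log2, SE 0.10). On the mitochondrial side Cpt1a, which commits fatty acids to oxidation, went from 159.7 and 189.8 CPM to 71.3 and 81.7 CPM and the thiolase gene Acaa2 from 85 and 71 CPM to 30.3 and 38.2 CPM. Hadha, a subunit of the trifunctional protein of this pathway, did not pass the test, at 0.008 (log2, SE 0.079).

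Few respiratory chain genes passed the test. Among complex I subunits 4 of 29 fell and 0 rose in edgeR's test, and the number of falls became 10 without vehicle replicate 2, 0 without LPS replicate 2, 8 with upper-quartile scaling and 2 with these 4 libraries alone. Of 20 tested subunits of complexes III and IV, 0 passed the edgeR test in either direction, with falls 5 without vehicle replicate 2 and 1 with upper-quartile scaling and rises 2 without vehicle replicate 1 and 1 without vehicle replicate 2. DESeq2 and limma-voom gave 0 rises of complex I subunits and 0 calls among complexes III and IV, and so did an unadjusted p under 0.05. In a list of the citric acid cycle, the enzymes around it and itaconate synthesis, 4 of 25 genes rose and 6 fell (falls 3 without LPS replicate 1 and 2 without LPS replicate 2). One of the rises was Irg1, the enzyme that makes itaconate out of a cycle intermediate, from 10.5 and 10.1 CPM to 4482 and 4775 CPM. Idh2, the mitochondrial isocitrate dehydrogenase, fell from 176 and 185 CPM to 124 and 115 CPM and the malic enzyme Me2 fell by 0.43 (log2, SE 0.079), while Dld and Dlst, subunits of the oxoglutarate dehydrogenase complex, rose by 0.63 (log2, SE 0.071) and 0.44 (log2, SE 0.082). The cycle enzyme gene Mdh2 did not pass the test, at 0.11 (log2, SE 0.068), though it was called without vehicle replicate 1.

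Glycolysis genes moved in both directions, in shares of 26.3% and 21.1% that lie near those of all genes. Of 19 tested glycolysis genes 5 rose (3 with LPS replicate 1 or 2 left out) and 4 fell (2 without LPS replicate 1 or with DESeq2 and 1 without LPS replicate 2). Slc2a1, the glucose transporter GLUT1, was at 92.3 and 93 CPM in vehicle and 231 and 237 CPM with LPS, and hexokinase 2, encoded by Hk2, rose by 1.18 (log2, SE 0.083). Pgam1 and Gpi1, enzymes further along, did not pass the test at -0.032 (log2, SE 0.059) and -0.068 (log2, SE 0.061). Pdk2, a kinase that inhibits the pyruvate dehydrogenase complex, fell from 15.4 and 10.4 CPM to 3.19 and 2.73 CPM. In the pentose phosphate pathway, which yields NADPH, 2 of 8 rose: Pgd by 0.71 (log2, SE 0.061) and G6pdx by 0.44 (log2, SE 0.068).

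Lipid genes moved in both directions. Of 15 tested genes of cholesterol efflux and storage, 4 rose and 6 fell. Ch25h, which makes an antiviral oxysterol, was at 2.23 and 1.04 CPM in vehicle and 21.3 and 25.9 CPM with LPS, and Abca1, the cholesterol exporter, rose by 0.86 (log2, SE 0.085). Nceh1, which frees cholesterol from its esters, fell from 418 and 453 CPM to 82.2 and 88.4 CPM, and Cyp27a1, another sterol hydroxylase, fell by 2.36 (log2, SE 0.24). Sterol synthesis and uptake had 9 rises and 2 falls of 21 (falls 1 with LPS replicate 1 or 2 left out). Among the falls, Dhcr7, which acts at the last step of cholesterol synthesis, fell by 0.92 (log2, SE 0.14). Fatty acid and phospholipid synthesis gave 7 rises (14 without vehicle replicate 2 and 4 with LPS replicate 1 or 2 left out, with DESeq2 or with these 4 libraries alone) and 6 falls of 30, or 23.3% and 20.0%, near the shares of all genes. Lpcat2, an acyltransferase that makes platelet-activating factor, rose from 49.6 and 62.6 CPM to 243 and 245 CPM, and Plin2, the coat protein of lipid droplets, fell from 1397 and 1308 CPM to 570.1 and 583 CPM. Fatty acid synthase, encoded by Fasn, did not pass the test, at 0.020 (log2, SE 0.065).

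Arginine enzymes went in opposite directions. Arg1, the arginase of alternatively activated macrophages, was at 787 and 783 CPM in vehicle and 167 and 159 CPM with LPS, a log2 change of -2.27 (SE 0.066, edgeR adjusted p = 3.1e-09). Gch1, which starts the synthesis of the biopterin cofactor of nitric oxide synthase, rose from 35.9 and 38.3 CPM to 186 and 167 CPM. Paox, a polyamine oxidase, fell by 1.98 (log2, SE 0.14) and Srm, the spermidine synthase, rose by 0.43 (log2, SE 0.082). The list as a whole had 4 rises and 4 falls of 14 tested.

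Enzymes that make and use NAD rose in 5 of 11 tested and fell in 4 (falls 2 with LPS replicate 1 or 2 left out). Cd38, which cleaves NAD, was at 111 and 85.2 CPM in vehicle and 496 and 449.7 CPM with LPS. Parp14 and Parp9, of the ADP-ribosyltransferase family that uses NAD, rose by 3.12 (log2, SE 0.089) and 2.04 (log2, SE 0.092). Nampt, which salvages nicotinamide back into NAD, rose from 211 and 224 CPM to 679.7 and 736 CPM, while Naprt, which starts from nicotinic acid, fell by 1.19 (log2, SE 0.21).

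Nucleotide enzymes moved in shares near those of all genes, as 22.2% rose and 18.5% fell. Of 27 tested 6 rose (10 without vehicle replicate 2) and 5 fell (8 without vehicle replicate 2, 2 without LPS replicate 1 and 3 without LPS replicate 2 or with these 4 libraries alone). Cmpk2, a mitochondrial nucleotide kinase, went from 3.8 and 6.56 CPM to 121 and 138 CPM, and Pnp, which splits purine nucleosides, rose by 1.42 (log2, SE 0.079). Xdh, the xanthine oxidase at the end of purine breakdown, fell from 497 and 542 CPM to 199.8 and 214 CPM and Adssl1, of adenine nucleotide synthesis, fell by 2.11 (log2, SE 0.10). Serine, glycine and one-carbon enzymes had 5 rises (8 without vehicle replicate 2) and 2 falls (1 without vehicle replicate 2, with LPS replicate 1 or 2 left out, with DESeq2 or with these 4 libraries alone) of 16. Asns, which makes asparagine, rose by 0.95 (log2, SE 0.081) and Mthfd2, a mitochondrial folate enzyme, by 0.95 (log2, SE 0.070). Aldh1l1, a cytosolic folate enzyme, fell by 0.98 (log2, SE 0.17).

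Genes of ribosome biogenesis, tRNA charging, heat shock proteins and the proteasome rose in most of their tested members. Of 32 tested ribosome biogenesis genes 27 rose and 0 fell in edgeR's test, with a median log2 fold change of 0.48. Rrs1, an assembly factor of the large subunit, was at 82.2 and 87.2 CPM in vehicle and 231 and 195 CPM with LPS, a rise of 1.33 (log2, SE 0.096, edgeR adjusted p = 2.5e-06). Ddx21, a nucleolar helicase, rose by 0.83 (log2, SE 0.069) and Bop1, of large-subunit processing, by 0.75 (log2, SE 0.10). Of the ribosomal proteins themselves 4 of 70 rose and 0 fell in edgeR's test, with rises 13 without vehicle replicate 1, 2 with LPS replicate 1 or 2 left out or with upper-quartile scaling and 7 with DESeq2 or with no filter and falls 8 without vehicle replicate 2 and 2 with upper-quartile scaling. At an unadjusted p under 0.05 there was 1 fall. Cytosolic tRNA synthetases, which charge tRNAs with amino acids, rose in 9 of 14 tested and fell in 0 (1 without vehicle replicate 2). Neither DESeq2 nor limma-voom gave a fall in these lists, and the count of falls in ribosome biogenesis and tRNA synthetases was also 0 at an unadjusted p under 0.05.

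Heat shock proteins rose in 11 of 18 and fell in 0 (1 without vehicle replicate 2). Stip1, a co-chaperone that links the large chaperones, was at 313 and 293 CPM in vehicle and 546 and 522 CPM with LPS, and Hsp90aa1, the inducible HSP90, rose by 0.53 (log2, SE 0.058). Hspa1a and Hspa1b rose by 1.38 (log2, SE 0.17) and 1.27 (log2, SE 0.14), but are near-identical copies whose reads the counting could split. The proteasome rose in 10 of 16 core and 16 of 20 regulatory subunits, with 0 falls in either. The falls of heat shock and proteasome genes were also 0 at an unadjusted p under 0.05, with DESeq2 and with limma-voom. Among the core rises were the inducible subunits of the immunoproteasome, with Psmb10 going from 94.3 and 91.2 CPM to 259 and 242 CPM. Psmb8 and Psmb9 rose by 1.11 (log2, SE 0.082) and 1.07 (log2, SE 0.10). The largest log2 fold change in the core list, 4.01, was that of another member, not described here. Psmb6, the standard counterpart of Psmb9, rose as well, from 270.4 and 282 CPM to 545 and 522 CPM. Of the chaperones and stress genes of the endoplasmic reticulum 2 of 20 rose and 5 fell (falls 2 without LPS replicate 1 and 3 without LPS replicate 2). Calr, a calcium-binding chaperone, did not pass the test at -0.005 (log2, SE 0.060), and Sdf2l1 fell by 0.82 (log2, SE 0.12).

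Of 165 tested solute carriers 41 rose (66 without vehicle replicate 2 and 27 without LPS replicate 2) and 29 fell (17 without LPS replicate 1 and 16 without LPS replicate 2), or 24.8% and 17.6%, near the 19.4% and 17.0% of all genes. Among amino acid transporters 10 of 21 rose (6 without LPS replicate 2) and 3 fell. Slc16a10, which carries aromatic amino acids, rose from 67 and 87.4 CPM to 298 and 297 CPM, a value uncertain because its symbol has 2 transcripts in the table. Slc6a6, the taurine transporter, was at 1010.4 and 1149 CPM in vehicle and fell to 536 and 567 CPM. Slc36a1, whose promoter is shown above, fell from 149 and 166 CPM to 56.5 and 59.8 CPM, a log2 change of -1.44 (log2, SE 0.099, edgeR adjusted p = 1.6e-06).

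Metal ion transporters rose in 10 of 23 tested and fell in 4 (falls 0 without LPS replicate 1 and 2 without LPS replicate 2). Slc25a37, the mitochondrial iron importer mitoferrin, was at 65.4 and 62.7 CPM in vehicle and 213 and 218 CPM with LPS, a rise of 1.75 (log2, SE 0.078, edgeR adjusted p = 6.7e-08). The metallothionein gene Mt1 did not pass the test, at 0.18 (log2, SE 0.094), but was called without vehicle replicate 1 and without LPS replicate 2. Transporters of nucleosides, vitamins, peptides and organic ions rose in 9 of 21 and fell in 4. Slc13a3, a carrier of dicarboxylates, was at 0.559 and 1.04 CPM in vehicle and 12.4 and 13.9 CPM with LPS, a rise of 4.00 (log2, SE 0.33). Slc15a3, an endolysosomal carrier of histidine and peptides, went from 444 and 401 CPM to 1278 and 1341 CPM, and Slc29a3, a lysosomal nucleoside carrier, from 174 and 176 CPM to 84.2 and 106 CPM.

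Sugar and monocarboxylate carriers gave 2 rises (4 without vehicle replicate 1, 5 without vehicle replicate 2 and 1 with a 5 CPM filter or with only symbols of 1 transcript) and 5 falls (3 with LPS replicate 1 or 2 left out) of 25. Against the rise of Slc2a1, the intracellular glucose carrier Slc2a8 fell from 30.5 and 33.6 CPM to 11.4 and 11 CPM, and Slc16a7, a monocarboxylate carrier, fell by 1.38 (log2, SE 0.21). Proton, sodium, potassium, chloride and phosphate carriers had 5 rises (10 without vehicle replicate 2 and 3 with LPS replicate 1 or 2 left out, with upper-quartile scaling or with these 4 libraries alone) and 9 falls of 26. Slc4a7, a sodium bicarbonate carrier, rose by 1.45 (log2, SE 0.10). Slc9a9, a sodium-proton exchanger of endosomes, fell from 60 and 75.3 CPM to 18.4 and 22.7 CPM and the anion carrier Slc26a11, which overlaps Sgsh, from 34 and 49.6 CPM to 8.38 and 7.76 CPM.

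ABC transporters rose in 7 of 28 and fell in 10. Abcc1, which exports glutathione conjugates and leukotriene C4, was at 118 and 142 CPM in vehicle and 508 and 553 CPM with LPS, a rise of 2.03 (log2, SE 0.097, edgeR adjusted p = 1.1e-07). Abcg3 fell from 19.6 and 23.2 CPM to 1.86 and 1.53 CPM and Abcc3, an exporter of organic anions, fell by 1.63 (log2, SE 0.14). Ion channels gave 10 rises (6 without LPS replicate 1) and 9 falls (4 without LPS replicate 1, 3 without LPS replicate 2 and 5 with DESeq2 or with these 4 libraries alone) of 31. Orai2, a pore subunit of store-operated calcium entry, rose from 28.3 and 35.8 CPM to 185 and 187 CPM, and Lrrc8c, a subunit of volume-regulated anion channels, by 2.08 (log2, SE 0.10). Clic4, a chloride intracellular channel protein, was at 490.4 and 520.4 CPM in vehicle and 1548 and 1719 CPM with LPS. The calcium-permeable channels Trpm2 and Trpv4 fell, with log2 changes of -1.18 (log2, SE 0.16) and -1.21 (log2, SE 0.25).

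Several of the largest falls belonged to none of these lists. Nat8l, which makes N-acetylaspartate, was at 15.4 and 12.7 CPM in vehicle and 0.931 and 1.31 CPM with LPS, a log2 change of -3.61 (SE 0.38, edgeR adjusted p = 3.9e-05). Hal, which breaks down histidine, went from 16.7 and 13.5 CPM to 1.33 and 1.86 CPM. Gpr157, an orphan receptor, fell by 3.21 (log2, SE 0.20), and Rab3il1, a regulator of RAB3 GTPases, from 213 and 206 CPM to 30.7 and 29.1 CPM. The genes Nxpe5, Prune2, Fry, Ppfia4 and Fam198b fell, with log2 changes of -3.34, -2.97, -2.96, -2.80 and -2.81. Arsg, a lysosomal sulfatase, and Prkag2, a regulatory subunit of AMP-activated kinase, fell, with log2 changes of -3.36 (SE 0.26) and -2.73 (SE 0.34), but their symbols have 2 and 4 transcripts in the table and their values are uncertain. The pseudogene Hmga2-ps1 fell by 3.54 (log2, SE 0.50), with log2 changes of -2.91 without LPS replicate 1 and -4.82 without LPS replicate 2. It overlaps Sdccag8 and is a copy of another gene, so its reads are uncertain.

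Factors that shorten the life of messenger RNA rose in 7 of 20 and fell in 5 (falls 3 without vehicle replicate 2, with DESeq2 or with these 4 libraries alone and 2 with LPS replicate 1 or 2 left out). Zc3h12a, the gene of Regnase-1, which degrades cytokine messages, was at 31.7 and 38.5 CPM in vehicle and 201 and 182 CPM with LPS, a rise of 2.45 (log2, SE 0.12). Its relative Zc3h12c rose by 3.73 (log2, SE 0.23), or 4.40 without vehicle replicate 2, and another relative, Zc3h12d, fell from 20.4 and 22.1 CPM to 5.72 and 5.79 CPM. In the transforming growth factor beta pathway 4 of 17 rose (2 with LPS replicate 1 or 2 left out, with DESeq2, with upper-quartile scaling or with these 4 libraries alone) and 2 fell (4 with upper-quartile scaling). The ligand gene Tgfb1 rose from 362 and 423 CPM to 730.1 and 692 CPM, while the ligand gene Tgfb3 fell by 1.27 (log2, SE 0.15) and Ski, a corepressor of SMAD proteins, fell by 1.20 (log2, SE 0.076). Smad3 and Smad4, which carry the signal, did not pass the test, at -0.15 (log2, SE 0.091) and 0.17 (log2, SE 0.089), though Smad4 was called without vehicle replicate 2.

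Chromatin modifiers gave 6 rises (10 without vehicle replicate 2) and 3 falls (7 without vehicle replicate 1, 6 without vehicle replicate 2, 1 without LPS replicate 1 and 5 with upper-quartile scaling) of 29. Tet2, a DNA demethylating enzyme, rose from 29.8 and 31.3 CPM to 64 and 62.1 CPM and Kdm6b, a histone demethylase known to be induced by LPS, by 1.33 (log2, SE 0.24), or 1.93 without vehicle replicate 2. The coactivator Ep300 did not pass the test, at -0.072 (log2, SE 0.096). Replication and mitosis genes had 3 rises (6 without vehicle replicate 2) and 5 falls (10 without vehicle replicate 2, 1 with LPS replicate 1 or 2 left out and 8 with upper-quartile scaling) of 28. Mki67, the proliferation marker, rose from 221 and 227 CPM to 378 and 388 CPM, Cdt1, which licenses replication origins, fell by 0.60 (log2, SE 0.11), and Top2a did not pass the test at 0.096 (log2, SE 0.066).

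Rab GTPases, which direct vesicle traffic, rose in 9 of 39 (14 without vehicle replicate 2) and fell in 6 (3 with LPS replicate 1 or 2 left out), or 23.1% and 15.4%, near the shares of all genes. Rab32, of lysosome-related organelles, was at 183 and 182 CPM in vehicle and 589.5 and 604 CPM with LPS, and Rab20 rose by 2.01 (log2, SE 0.13). Rab31 and Rab3d fell, with log2 changes of -1.01 (SE 0.082) and -1.44 (SE 0.17). Tripartite motif genes, many of them antiviral ubiquitin ligases, rose in 8 of 25 (13 without vehicle replicate 2, 5 without LPS replicate 1 and 4 without LPS replicate 2) and fell in 0 in edgeR's test (2 without vehicle replicate 1, 4 without vehicle replicate 2 and 1 with upper-quartile scaling or with no filter). At an unadjusted p under 0.05 2 fell, with DESeq2 and limma-voom 0. Trim30a rose from 56.2 and 51.6 CPM to 232 and 283 CPM, though it shares sequence with close copies. Genes named Tmem, transmembrane proteins of mostly unknown role, fell more often than they rose, 33 (20 without LPS replicate 2) against 16 (32 without vehicle replicate 2) of 123. Tmem86a, which degrades lysoplasmalogen lipids, was at 131 and 167 CPM in vehicle and 24.3 and 21.9 CPM with LPS, a log2 change of -2.69 (SE 0.14, edgeR adjusted p = 1.7e-07), and Tmem154 fell by 2.20 (SE 0.12).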

How the data were processed

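Polyadenylated RNA of 6 libraries was sequenced, and the authors deposited whole-number read counts for 34751 RefSeq transcripts of mm10. TopHat2 2.0.13 and HTSeq 0.5.4p3 were used, per the submitters' processing notes. The annotation version, the strand setting and the treatment of shared reads are not stated in those sources, so reads of overlapping or antisense genes cannot be told apart.

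Counts were summed per symbol. The 5639 symbols with several transcripts held 1.87% of counts, and their values are uncertain (869 were tested, 187 called). Genes were filtered by filterByExpr with a minimum count of 10. After TMM scaling they were tested with glmQLFit and glmQLFTest of edgeR 4.0.16 (R 4.3.3) in 1 model of the 3 groups over 6 libraries, with 3 residual degrees of freedom. Adjusted p-values are Benjamini-Hochberg over 9389 genes, with a threshold of 0.05. The SE was taken as the absolute log2 fold change over the root of F. The script was tested on simulated data. DESeq2 1.42.0, limma-voom (limma 3.58.1), other scalings, filters and thresholds, a replicate block and leaving out each library were tried.

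Members and gene lists were chosen with earlier results of these data known. The genes named were the 15 largest rises and 25 largest falls among called genes with a mean of at least 5 CPM and groups that do not overlap, up to 3 rises, 3 falls and 2 genes not called per list, and markers at or above 5 CPM. Some genes that this names, cytokine genes among them, are not described here. Acaa2, Adora2a, C3ar1, Cd93, Cpt1a, Ctsb, Ctsd, Cybb, Fcer1g, Fcgr2b, Fcgr3, Fcgr4, Foxo3, Galc, Hcar2, Hsp90aa1, Lgmn, Mrc1, Nampt, P2ry6, Psmb6, Rn45s, S1pr1, Saa3, Shisa3, Spi1, Stab1 and Tnfrsf1b were named after their values were seen.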

Additional observations from a re-analysis of the deposited data

How the results depend on the processing

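At a threshold of 0.01 there were 2216 calls, 975 of them lower, and a test against a 2-fold change gave 604, 380 higher and 224 lower. With 1 library left out the calls ran from 2091 to 5494, the rises from 1214 to 2900 and the falls from 877 to 2594. Changes over 2-fold ran from 551 to 1225 higher and from 420 to 1096 lower. The highest values all came without vehicle replicate 2, where vehicle replicate 1, the library that stood apart, is the only control and is assumed to vary like the other groups. DESeq2 gave 2882 calls, limma-voom 3411, no filter on low counts 3701, a filter of 5 CPM 3293, vehicle and LPS libraries alone 2772, and symbols with 1 transcript 3299. No gene called with edgeR's main settings changed sign in any of these.

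Replicate numbers were not taken to pair the libraries: the differences between replicates 1 and 2 correlated across genes by -0.004 between vehicle and LPS, 0.014 between vehicle and SGA360+LPS and 0.198 between LPS and SGA360+LPS. A replicate block gave 3434 calls, 1855 higher and 1579 lower. Log2 levels correlated at 0.977 between the vehicle replicates and at 0.994 between the LPS replicates. The common coefficient of variation between replicates in edgeR was 0.0951 over all libraries. It was 0.119 with vehicle and LPS libraries alone and 0.054 without the vehicle libraries. The main fit therefore assumes less spread than these 2 groups alone show. The depth of 7726973 to 9529817 counts limits the low genes: under a mean of 2 CPM, 8.69% rose and 2.9% fell.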
